A study of Mus musculus with 11 samples.

Results

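Noncoding snoRNA host genes were described in mouse OT-I CD8+ T cells, whose T cell receptor is a transgene and recognises a peptide of ovalbumin. The members were 10 genes chosen by name, Gas5, Snhg1, Snhg3, Snhg5, Snhg6, Snhg8, Snhg12, Snhg15, Zfas1 and Epb41l4aos, out of 55414 genes in the deposited table. The rule uses names and not measured values, but it was set with earlier results of these data known. All 10 were measured and all passed the filter on low counts, and 83 of the 142435 transcripts in the second table belonged to them. RNA was taken at 12 h from cells given Torin, an inhibitor of the kinase mTOR, together with the N4 peptide (3 Torin libraries, numbered 1, 3 and 4), from cells given N4 with the solvent DMSO (4 stimulated libraries) and from untreated cells (4 naive libraries). All 11 libraries share the OT-I genotype. Age, sex and the dose of Torin or peptide are not given in the sources used here, nor is whether the numbered libraries came from separate mice, so p-values measure the spread between these libraries. Library totals were 241865667 to 405884097 estimated counts.

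Small nucleolar RNAs guide the chemical modification of ribosomal RNA and sit in the introns of host genes. When a noncoding host is spliced, the intron yields the snoRNA and the joined exons leave the nucleus as an RNA with only short reading frames. Many such exon RNAs are read by ribosomes and then removed by nonsense-mediated decay, so blocking translation is known to raise them. Several start with a terminal oligopyrimidine (TOP) tract, a C followed by a run of C and T, the element through which mTOR controls the translation of ribosomal protein mRNAs. Gas5 was first known as a transcript that accumulates in growth-arrested cells. The libraries were made from poly(A) RNA, so they read the exon RNAs, and the snoRNAs inside the members that the table lists stood at no more than 1.17 CPM (counts scaled to library size), apart from Gm23639 inside Epb41l4aos at up to 10.3 CPM.

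The first bases of the members are shown because the tract at the start is what sets TOP hosts apart. Of the 10 members, 7 have an annotated start with a C followed by at least 4 pyrimidines (Gas5, Snhg3, Snhg5, Snhg6, Snhg8, Snhg12 and Zfas1), counting GENCODE M21 transcripts. Among tested genes, 7.54% have such a start in any transcript, and among those with 5 or more transcripts 15.2% do. It was found in 35 of 79 ribosomal protein genes by the same count. The sequences below run 30 bases from the start, with the tract in capitals. For Gas5 (chr1:161035166-161035195, plus strand) and Snhg8 (chr3:123508307-123508336, minus strand) they are credited to RefSeq, build GRCm38.p6. A RefSeq start was shown only where it held the tract. The others are the first bases of GENCODE M21 transcripts (GRCm38), the one with the longest tract or, for Snhg1 and Snhg15, the most abundant one.
Gas5, RefSeq start: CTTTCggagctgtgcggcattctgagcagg
Snhg8, RefSeq start: CTCTTTggctgcgatccgcctacgagtatg
Snhg6-203: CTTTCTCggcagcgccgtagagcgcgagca
Zfas1-202: CCTTTCgttccggcggctcctagagcgttt
Snhg12-210: CCTTTCTCgcttcatccgcggtccctgtct
Snhg5-204: CTTTTacgacggagcctaagatattctttg
Snhg3-203: CTCTCTaggcgtcgctctcttggtgtgctt
Snhg1-211: gttcttgtcggcctcatttttccttgttcg
Snhg15-201: gttcggaggggctagaactgggtgatacgc
No such tract opens any annotated transcript of Snhg1, Snhg15 or Epb41l4aos, and the sequence of the last was not printed. The RefSeq starts of Snhg1, Snhg3, Snhg5, Snhg12, Snhg15 and Zfas1 do not hold it, nor does 1 of the 2 of Gas5. In Gas5, Zfas1, Snhg3 and Snhg12 the transcript that drew most counts is annotated to start elsewhere, and Snhg3-203, shown above, was listed at 0 in every library. Snhg5-204, Snhg12-210 and Zfas1-202, also shown, averaged 0.0517, 2.31 and 4.25 CPM of library totals. In Snhg6 and Snhg8 the leading transcripts, Snhg6-203 and Snhg8-201, hold the tract. For Snhg5 the leading transcript is not known, since most of its counts fell in transcripts that were not matched. An annotated start is not a measured one.

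Windows of 250 bases before to 50 after the start were held by RefSeq for 8 members (9 windows). They were searched on both strands for the cyclic AMP response element TGACGTCA, the E-box CACGTG, the ETS-type element CCGGAAG and the palindrome bound by BANP. TGACGTCA occurred in the windows of Gas5 (1 of its 2) and Snhg15, against 1.79% of all 32851 windows. CACGTG occurred in that of Snhg15 (7.15% of all windows) and CCGGAAG in that of Snhg3 (8.86%), and the palindrome in none (0.466%). Both windows with TGACGTCA are shown, with matches and the tract of Gas5 in capitals. Windows were picked for holding that match, and this choice was made after the values of the members were seen. They lie at chr1:161034916-161035215 (plus strand) and chr11:6528711-6529010 (minus strand) of GRCm38.p6.
Gas5 window: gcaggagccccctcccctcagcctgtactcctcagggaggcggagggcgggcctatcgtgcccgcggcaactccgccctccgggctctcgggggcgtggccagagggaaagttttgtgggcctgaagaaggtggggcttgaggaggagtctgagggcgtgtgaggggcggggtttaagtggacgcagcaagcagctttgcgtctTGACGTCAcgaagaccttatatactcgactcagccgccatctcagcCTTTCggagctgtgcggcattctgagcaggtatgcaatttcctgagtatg
Snhg15 window: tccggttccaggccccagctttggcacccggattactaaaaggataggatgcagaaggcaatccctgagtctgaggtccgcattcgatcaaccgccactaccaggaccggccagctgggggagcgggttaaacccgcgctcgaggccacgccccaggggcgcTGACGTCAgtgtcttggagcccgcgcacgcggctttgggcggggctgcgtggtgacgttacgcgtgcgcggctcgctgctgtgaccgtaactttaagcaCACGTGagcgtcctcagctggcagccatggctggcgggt
The annotated start of Snhg15-201, the most abundant Snhg15 transcript, is at 6528441 on the minus strand, outside the Snhg15 window. The matches do not overlap each other. They are descriptions of the letters and no factor was measured at these sites.

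The libraries carried the 8 CD8 T cell markers, each at 86.2 CPM or more, with sums of 4160 to 4450 CPM in Torin, 2450 to 3160 in stimulated and 5500 to 6820 in naive libraries. The 9 B cell markers summed to 38.9 to 13200 CPM in Torin, 43.1 to 14400 in stimulated and 222 to 47400 in naive libraries, with the highest value of each group in the library numbered 4. The 9 granulocyte markers summed to 16.5 to 52.9 CPM in Torin, 17.1 to 2100 in stimulated and 139 to 8770 in naive libraries, with the high values in stimulated 2 and naive 2. The sums for 8 monocyte and macrophage markers were 12.5 to 15.0, 8.84 to 99.3 and 119 to 2130 CPM, for 8 erythroid and platelet markers 210 to 424, 239 to 814 and 350 to 1070 CPM, and for 3 CD4 T cell markers 1.2 to 1.63, 0.779 to 2.35 and 2.06 to 3.02 CPM, in the order Torin, stimulated, naive. None of these lists had a member at 0 in every library. Their part in the results was not tested beyond fits of gene levels without the libraries of number 4 or number 2, given with each comparison where a call was lost. Such fits were not run for members relative to ribosomal protein genes or for transcript usage, where only single libraries were left out. Stimulated 3 was the highest stimulated library for all 10 members in CPM with composition factors (TMM, which scale libraries on the bulk of their genes), the scale used for levels unless another is named.

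Set per length, as TPM (a transcript level scaled to length and library) computed from the matched transcripts, Gas5 was the highest member in each group. It averaged 2510 ± 318 TPM in Torin libraries (SD, n = 3), 1090 ± 202 in stimulated and 1600 ± 169 in naive libraries (SD, n = 4 each). Snhg15 came next in Torin (1020 ± 86.4) and stimulated libraries (820 ± 132), where its range overlapped that of Gas5 in stimulated libraries only. In naive libraries the second place was held by Zfas1 (296 ± 30), whose range overlapped that of Snhg15 (255 ± 60.8). Snhg6 held the fourth place in Torin (223 ± 19.5), the third in stimulated (404 ± 60.7) and the fifth in naive libraries (94.9 ± 19.9). Snhg1, Snhg8 and Epb41l4aos lay between 98.8 and 154 TPM on average in Torin and stimulated libraries, and neighbours among them overlapped. Snhg3 and Snhg12 were the lowest, at 19.6 to 31.2 TPM on average in every group. Snhg5 was left out of this order because only 22.5% to 51.4% of its counts fell in transcripts with a known length. The 10 members together took 0.261% to 0.323% of all counts in Torin, 0.148% to 0.225% in stimulated and 0.14% to 0.175% in naive libraries.

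**Figure D1:**
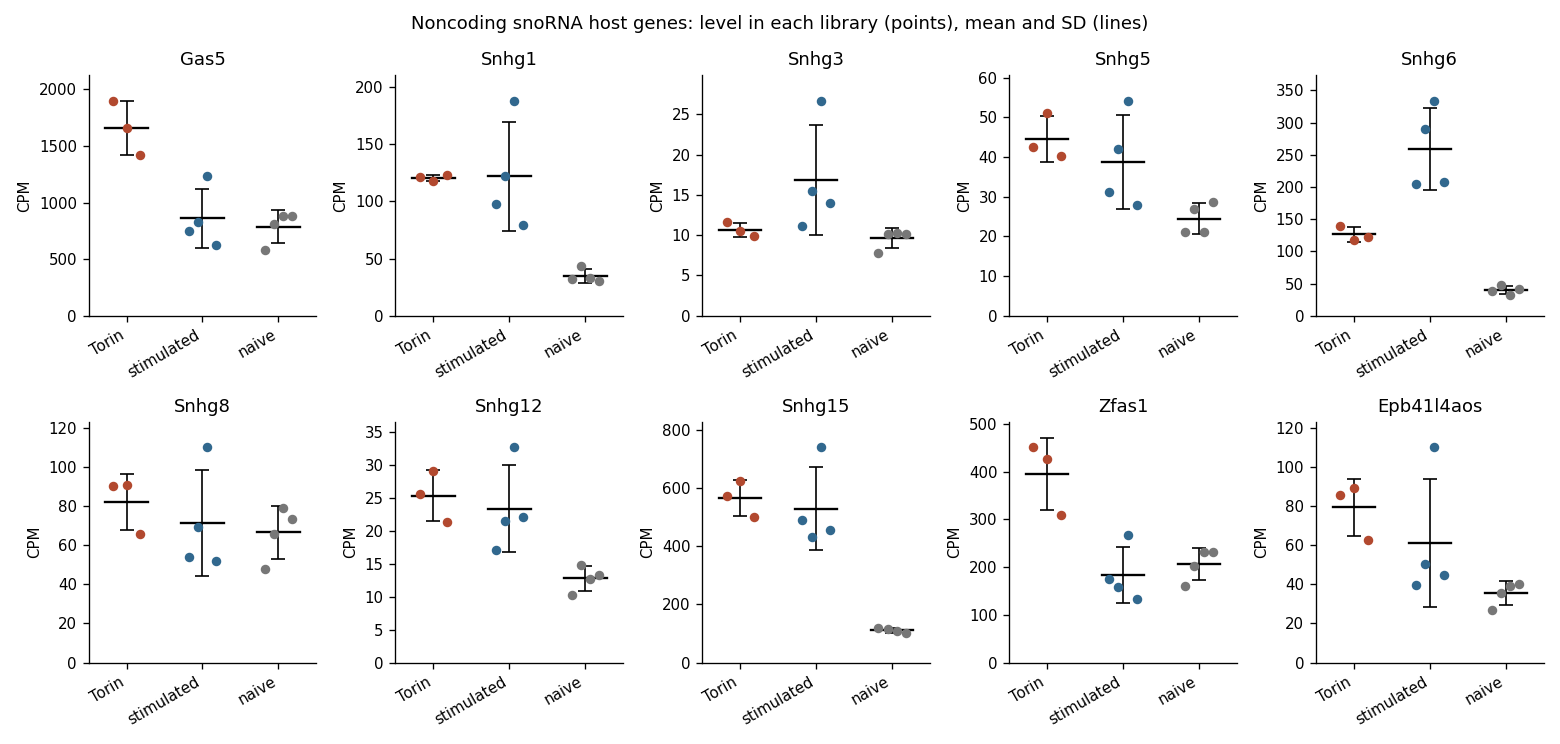
Level of each member in CPM with composition factors (y axis, linear from 0) in Torin, stimulated and naive libraries (x axis), with 1 point per library and lines for the mean and SD. Gas5 and Zfas1 are higher in every Torin than in every stimulated library, Snhg6 is lower, and Snhg15 and Snhg1 are low in naive libraries only.

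With Torin added to the peptide, Gas5 and Zfas1 rose and Snhg6 fell, and the other 7 members did not pass the test. Gas5 stood at 1900, 1660 and 1420 CPM in Torin 1, 3 and 4, against 753, 826, 1230 and 629 CPM in stimulated 1 to 4. The groups did not overlap, and stimulated 3 was the highest of its group. The fitted change was a log2 of 0.95 (SE 0.234, adjusted p = 0.0453), or 1.93-fold. Zfas1, a host transcribed from the strand opposite Znfx1, stood at 451, 426 and 309 CPM in Torin libraries, against 176, 158, 268 and 134 CPM in stimulated libraries. It rose by a log2 of 1.10 (SE 0.241, adjusted p = 0.0303), or 2.15-fold, again without overlap. Snhg6, whose intron holds Snord87, went the other way. It stood at 140, 117 and 122 CPM in Torin libraries, against 204, 290, 334 and 208 CPM in stimulated libraries. Every Torin library lay below every stimulated one, and the fitted change was a log2 of -1.04 (SE 0.207, adjusted p = 0.0226). Over all 22238 genes tested, 1027 were called in this comparison (4.62%), 515 higher (2.32%) and 512 lower (2.3%). At a mean of at least 5 CPM, which every member exceeded, 1378 of 8550 genes were called, 684 higher and 694 lower. The median log2 change was 0.16 over the members and -0.02 over all genes. Since these are bulk libraries, more or fewer cells of a type and more or less of an RNA per cell cannot be told apart.

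These 3 calls rest on few libraries while their sizes moved little. With the replicate number as a block, Gas5 missed the threshold (log2 0.99, adjusted p = 0.0527), as it did with no filter on low counts and without naive 2, naive 3 or naive 4. With the description prefix as a block, Gas5 (adjusted p = 0.0841) and Zfas1 (log2 1.08, adjusted p = 0.0656) missed it, and the call of Snhg6 alone was left (-0.96, adjusted p = 0.0476). No member was called without Torin 1, Torin 3 or stimulated 2, and 1 was called without Torin 4, stimulated 1 or stimulated 4. None was called without the libraries of number 4, where the log2 changes were 0.94 for Gas5, 1.15 for Zfas1 and -1.08 for Snhg6, and calls over all genes dropped to 55. Likewise none was called without those of number 2, at 0.93, 1.04 and -0.98. Across the fits that left out 1 library, the log2 change stayed between 0.82 and 1.13 for Gas5, between 0.98 and 1.3 for Zfas1 and between -1.13 and -0.93 for Snhg6.

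The other members lay on both sides of 0 in this comparison. Snhg3, which hosts snoRNAs of the Snora73 family, stood at 11.6, 10.5 and 9.89 CPM in Torin libraries, against 11.2, 15.5, 26.7 and 14 CPM in stimulated libraries (log2 -0.66, SE 0.268, adjusted p = 0.198). Its groups overlapped, and without stimulated 3 the log2 change was -0.39. Epb41l4aos stood at 85.9, 89.4 and 62.8 CPM in Torin libraries, against 39.5, 50.5, 110 and 44.7 CPM in stimulated libraries (log2 0.38, SE 0.326, adjusted p = 0.592). Here too stimulated 3 stood above the rest, and without it the log2 change was 0.78 (adjusted p = 0.0593). The 95% intervals of the log2 change were -0.52 to 0.49 for Snhg1, -0.25 to 0.64 for Snhg5, -0.33 to 0.74 for Snhg8, -0.32 to 0.55 for Snhg12 and -0.27 to 0.46 for Snhg15. Each of these intervals includes 0 and is wide, so they do not show that Torin left these genes alone.

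Peptide stimulation raised 6 of the 10 members. Snhg6 had the largest change, at 204, 290, 334 and 208 CPM in stimulated libraries, against 38.3, 47.8, 32.1 and 40.9 CPM in naive libraries (log2 2.7, SE 0.199, adjusted p = 7.68e-06, 6.51-fold). Snhg15, the host of Snora9, stood at 491, 431, 740 and 457 CPM in stimulated libraries, against 118, 115, 109 and 101 CPM in naive libraries (log2 2.26, SE 0.181, adjusted p = 1.03e-05, 4.79-fold). Snhg1, which holds a series of C/D box snoRNAs, stood at 98.0, 122, 188 and 79.1 CPM in stimulated libraries, against 31.7, 43.8, 32.8 and 30.3 CPM in naive libraries (log2 1.81, SE 0.246, adjusted p = 0.000169, 3.52-fold). In these 3 genes the lowest stimulated library lay well above the highest naive one. The changes of Snhg12 (log2 0.87, SE 0.207, adjusted p = 0.00614), Snhg3 (0.81, SE 0.246, adjusted p = 0.0225) and Snhg5 (0.67, SE 0.213, adjusted p = 0.0277) were smaller. Snhg3 ranged over 11.2 to 26.7 CPM in stimulated and 7.74 to 10.3 CPM in naive libraries. Snhg12 stood at 17.1, 21.4, 32.6 and 22.1 CPM in stimulated libraries, against 10.3, 14.8, 12.6 and 13.3 CPM in naive libraries. Snhg5 ranged over 28 to 54.2 CPM in stimulated and 21.1 to 28.7 CPM in naive libraries, so that the groups overlapped slightly.

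The remaining 4 members did not pass the test. Gas5 stood at 753, 826, 1230 and 629 CPM in stimulated libraries, against 577, 813, 882 and 881 CPM in naive libraries, with overlap (log2 0.13, SE 0.218, adjusted p = 0.685). Zfas1 ranged over 134 to 268 CPM in stimulated and 160 to 232 CPM in naive libraries (log2 -0.16, SE 0.225, adjusted p = 0.603). Snhg8, the host of Snora24, ranged over 51.7 to 110 CPM in stimulated and 47.8 to 79 CPM in naive libraries (log2 0.10, SE 0.253, adjusted p = 0.799). Epb41l4aos was at a log2 change of 0.78 (SE 0.306, adjusted p = 0.0648), and of 0.41 without stimulated 3. Of all genes, 39.5% were called in this comparison, 4272 higher (19.2%) and 4501 lower (20.2%). At a mean of at least 5 CPM, which every member exceeded, 5881 of 8550 genes were called, 2776 higher and 3105 lower. The share called was thus larger among genes at such levels than over all genes. The median log2 change was 0.80 over the members and -0.22 over all genes.

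How much was called depended on the scaling here. With library totals alone the median of all genes moved to -0.71 and the calls to 2600 higher and 6525 lower. On that scale 3 members rose, Snhg6 (log2 2.20), Snhg15 (1.74) and Snhg1 (1.29), and Zfas1 fell (-0.67, adjusted p = 0.0121), while Snhg3, Snhg5 and Snhg12 lost their calls and Gas5 (-0.38) and Snhg8 (-0.42) turned to values below 0. In stimulated against naive libraries, 4 members were called without naive 1 or without the libraries of number 2, where Snhg3 and Snhg5 lost their calls. Snhg5 alone lost it without naive 3, without stimulated 2 and at a mean of at least 5 CPM, and Epb41l4aos gained one without stimulated 1 (log2 0.94).

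Set against naive cells, the cells that met peptide and Torin together had 8 members higher, all but Snhg3 and Snhg8. Snhg15 changed by a log2 of 2.36 (SE 0.190, adjusted p = 3e-05), with 574, 625 and 501 CPM in Torin libraries, against 101 to 118 CPM in naive libraries. Snhg1 rose by 1.8 (SE 0.258, adjusted p = 0.000412), with 121, 118 and 123 CPM in Torin libraries, against 30.3 to 43.8 CPM in naive libraries. Snhg6 rose by 1.67 (SE 0.202, adjusted p = 0.000161), so that its Torin libraries lay between the naive and the stimulated ones without overlap. Epb41l4aos (1.16), Gas5 (1.07), Snhg12 (0.99), Zfas1 (0.94) and Snhg5 (0.86) rose as well, with adjusted p-values of 0.00489 to 0.0191. Snhg3 was at 9.89 to 11.6 CPM in Torin and 7.74 to 10.3 CPM in naive libraries (log2 0.15, SE 0.264, adjusted p = 0.714). Snhg8 was at 65.8 to 90.6 CPM in Torin and 47.8 to 79 CPM in naive libraries (log2 0.30, SE 0.273, adjusted p = 0.439), and both turned to values below 0 with library totals alone (-0.18 for Snhg3 and -0.03 for Snhg8). Of all genes, 32.2% were called, 3648 higher (16.4%) and 3515 lower (15.8%), or 2284 higher and 4551 lower with library totals. At a mean of at least 5 CPM, 5120 of 8550 genes were called, 2487 higher and 2633 lower. The median log2 change was 1.03 over the members and -0.18 over all genes. Of the 8 calls, those of Epb41l4aos and Zfas1 were lost without Torin 1, those of Epb41l4aos and Snhg5 without Torin 3, and that of Epb41l4aos without the libraries of number 2. This comparison shares its Torin and its naive libraries with the others, so the 3 sets of changes are not independent of each other.

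**Figure D2:**
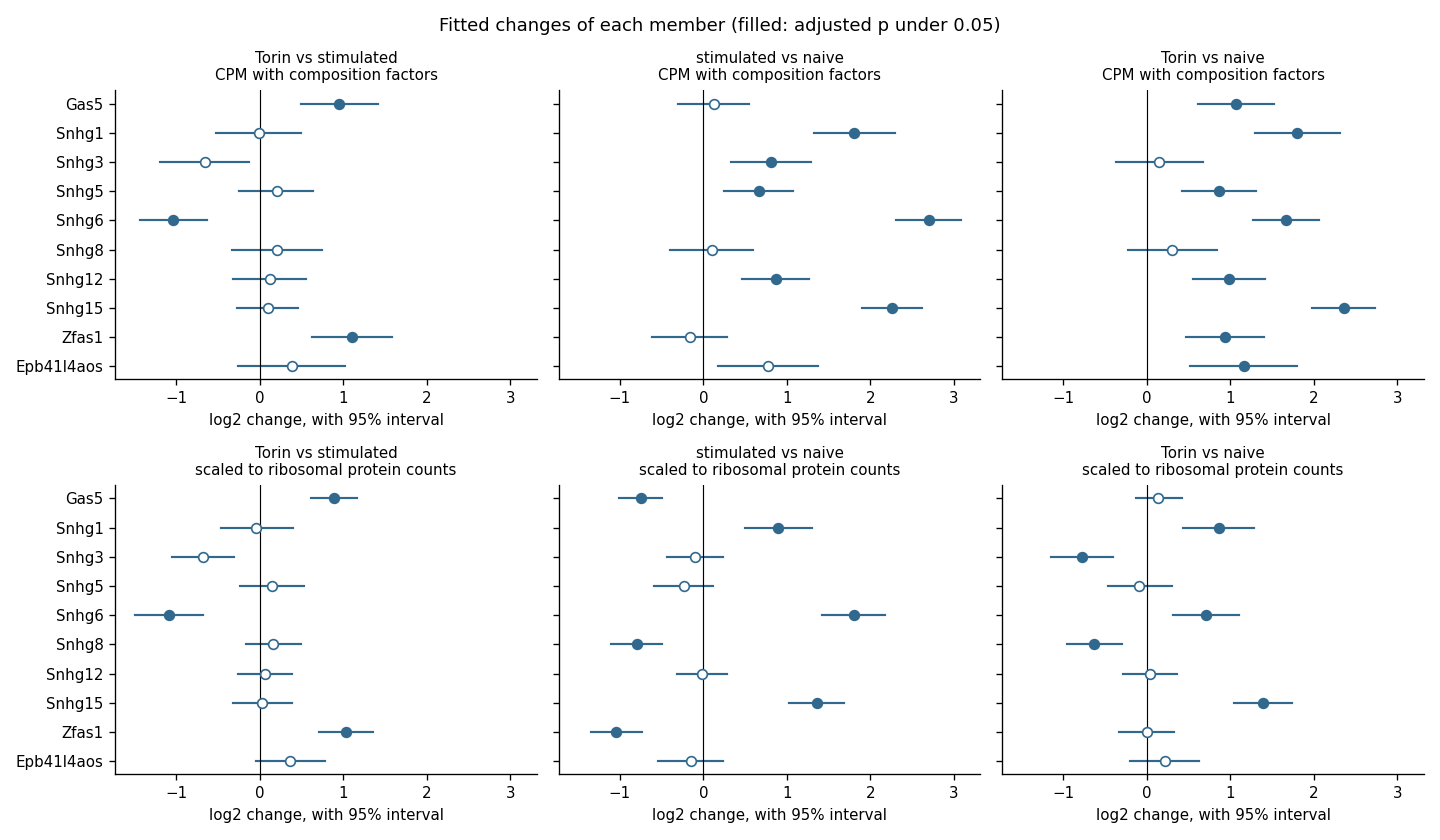
Fitted log2 change of each member with its 95% interval (x axis) in the 3 comparisons, on composition-scaled counts (upper row) and scaled to ribosomal protein counts (lower row). Filled points passed an adjusted p under 0.05. On the lower scale Gas5, Zfas1 and Snhg8 are below 0 in stimulated against naive libraries, and Gas5 and Zfas1 are near 0 in Torin against naive libraries.

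Ribosomal protein genes are the best known TOP genes, and their own share of all counts differed between the groups, at 20.9% to 25.2% in Torin, 18.2% to 21.9% in stimulated and 13.9% to 17.9% in naive libraries. The members were therefore also counted per 1000 counts of the 79 ribosomal protein genes, a scale that does not depend on the rest of the library. On it Gas5 stood at 7.41, 6.23 and 6.66 in Torin libraries, against 3.98, 3.60, 4.10 and 2.91 in stimulated libraries and 5.61, 6.2, 5.95 and 6.73 in naive libraries. Stimulated libraries were thus lower than both others. Zfas1 showed the same order, at 1.76, 1.60 and 1.45 in Torin libraries, 0.930, 0.687, 0.891 and 0.620 in stimulated libraries and 1.55, 1.54, 1.57 and 1.76 in naive libraries. Gas5 and Zfas1 fell in stimulated against naive libraries, with log2 changes of -0.75 (SE 0.132, adjusted p = 0.00113) for Gas5 and -1.04 (SE 0.156, adjusted p = 0.000418) for Zfas1. Both rose in Torin against stimulated libraries, by 0.89 (SE 0.141, adjusted p = 0.0164) and 1.03 (SE 0.166, adjusted p = 0.0167). In Torin against naive libraries the log2 change was 0.14 (95% interval -0.13 to 0.42) for Gas5 and 0.00 (-0.33 to 0.33) for Zfas1.

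**Figure D3:**
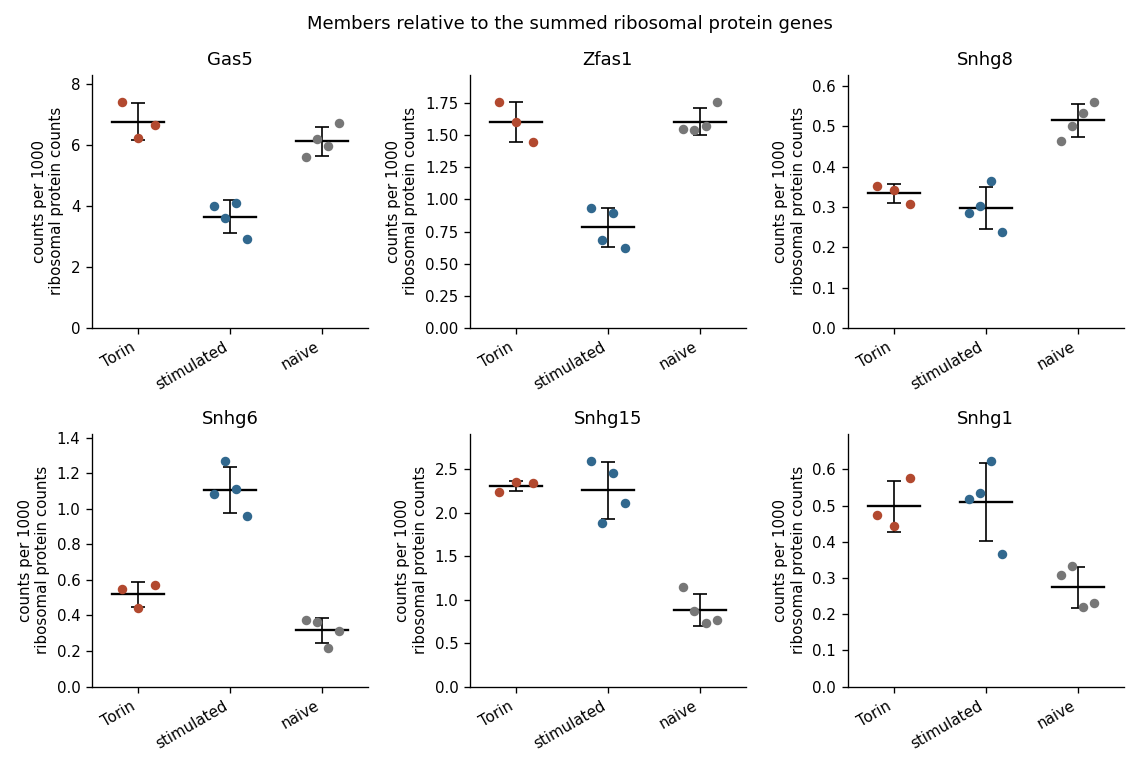
Counts of 6 members per 1000 counts of the summed ribosomal protein genes (y axis, linear from 0) in Torin, stimulated and naive libraries (x axis), with 1 point per library and lines for mean and SD. Gas5 and Zfas1 are low in stimulated libraries, Snhg6 is high there, and Snhg8 is high in naive libraries.

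Snhg8 joined them in part. It stood at 0.352, 0.341 and 0.308 per 1000 in Torin libraries, 0.285, 0.302, 0.365 and 0.239 in stimulated libraries and 0.465, 0.502, 0.533 and 0.561 in naive libraries. It fell in stimulated (log2 -0.79, adjusted p = 0.00203) and in Torin libraries (-0.63, adjusted p = 0.0143) against naive ones. Snhg6, Snhg15 and Snhg1 rose more than the ribosomal protein genes did on stimulation, by 1.8 (SE 0.194), 1.36 (SE 0.169) and 0.90 (SE 0.206), with adjusted p-values of 6.09e-05, 0.000133 and 0.00505. Snhg6 stood at 0.548, 0.440 and 0.569 per 1000 in Torin libraries, 1.08, 1.27, 1.11 and 0.960 in stimulated libraries and 0.372, 0.365, 0.216 and 0.312 in naive libraries. It fell with Torin (log2 -1.09, SE 0.209, adjusted p = 0.0307). Snhg12 kept close to the ribosomal protein genes, at 0.0996 to 0.109 in Torin, 0.0906 to 0.108 in stimulated and 0.0848 to 0.113 in naive libraries, with intervals of the log2 change of -0.26 to 0.38, -0.31 to 0.28 and -0.28 to 0.36 in Torin against stimulated, stimulated against naive and Torin against naive libraries. On this scale 3 members rose and 3 fell in stimulated against naive libraries, where 43.6% of all genes were called, 7.05% higher and 36.6% lower, so the median over all genes was -1.07 and over the members -0.12. In Torin against stimulated libraries 2 rose and 1 fell (1.92% of all genes called, 0.634% higher and 1.28% lower). In Torin against naive libraries 3 rose and 2, Snhg3 and Snhg8, fell (36.7% of all genes called, 3.06% higher and 33.6% lower), and without Torin 4 this came to 3 calls, Snhg1, Snhg15 and Snhg3. Without Torin 1, Snhg6 lost its call. The 6 calls on stimulation held in each fit that left out 1 library, while the 3 with Torin were lost without Torin 1, Torin 3 or stimulated 2, without stimulated 4 only that of Gas5 was left, and that of Snhg6 was lost without Torin 4 or naive 4.

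Transcript by transcript, stimulation changed the make-up of 6 members, and Torin against stimulated libraries changed none past the threshold. Usage was tested as the log2 ratio of a transcript to the other transcripts of its gene, for 50 transcripts of 9 members, Snhg3 having only 1 of sufficient level. Against naive libraries, 20 of the 50 differed in stimulated libraries (13 higher and 7 lower), where 16.6% of 14151 transcripts did (8.23% higher and 8.37% lower). This came to 16 with the replicate block, 28 with a prior of 2 CPM, 15 at a mean of at least 5 CPM and 15 to 21 with 1 library left out. Of the 20 calls, 13 held in each of the 11 fits that left out 1 library. The others were lost in 10 of them for Gas5-220, 9 for Gas5-224, 8 for Snhg15-203, 5 for Snhg15-201, 4 each for Snhg12-202 and Snhg12-206, and 1, that without stimulated 1, for Snhg8-201. Transcripts of a gene are not independent, since one can gain only where another loses, and short-read estimates of overlapping transcripts are uncertain. In Torin against stimulated libraries 0 of 50 were called by limma (28 transcripts, 0.198%, over all genes, or 3 with the replicate block), with 16 of 50 at an unadjusted p under 0.05 against 11.8% of all transcripts. With a larger prior of 2 CPM, Gas5-208, Gas5-209 and Gas5-217 were called lower.

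Gas5-224, a spliced form with 12 exons, held 74.9%, 73.5% and 71.4% of the Gas5 count in Torin libraries, 64.1%, 69.4%, 64.8% and 62.6% in stimulated libraries and 70.8%, 74.4%, 75.6% and 76.0% in naive libraries. Its share was lower in every stimulated than in every naive library (log2 ratio -0.62, SE 0.184, adjusted p = 0.0474, and 0.0987 with the replicate block). The 20 transcripts of Gas5 annotated with a retained intron summed to 18%, 19.8% and 19.7% in Torin libraries, 24.6%, 23.2%, 24.6% and 27.2% in stimulated libraries and 20.5%, 17.7%, 15.9% and 15.1% in naive libraries. The stimulated libraries stood above all others. Of these, Gas5-218 (log2 ratio 1.78, SE 0.263, adjusted p = 0.00204), Gas5-204 (1.48, SE 0.273, adjusted p = 0.00591), Gas5-208 (0.90, SE 0.188, adjusted p = 0.0107) and Gas5-220 (0.80, SE 0.225, adjusted p = 0.0374, and 0.0898 with the block) rose in stimulated against naive libraries. Gas5-208 averaged only 1.11 CPM and was at 0.64 with a prior of 2 CPM.

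In Zfas1, too, the leading form fell on stimulation. Zfas1-205, its 5-exon form, held 81.6%, 79.8% and 79.5% in Torin libraries, 82.5%, 77.9%, 79.5% and 79.3% in stimulated libraries and 85.6%, 88.9%, 88.0% and 89.6% in naive libraries. It fell in stimulated (log2 ratio -0.90, SE 0.190, adjusted p = 0.0114) and in Torin libraries (-0.84, SE 0.205, adjusted p = 0.0429, and 0.121 with the replicate block) against naive ones. Its 4 retained-intron transcripts summed to 10.6%, 12.0% and 11.9% in Torin libraries, 11.9%, 14.9%, 12.9% and 14.2% in stimulated libraries and 9.31%, 6.93%, 7.06% and 6.18% in naive libraries. Of these, Zfas1-201 (1.66), Zfas1-204 (1.35) and Zfas1-202 (1.31) rose on stimulation, with adjusted p-values of 0.00813 to 0.0119. They averaged only 2.42, 2.51 and 4.25 CPM, and were at 1.24, 1.1 and 1.14 with a prior of 2 CPM. The most abundant retained-intron form, Zfas1-203 (16.6 CPM), missed the threshold (0.55, adjusted p = 0.053). It was called with a prior of 2 CPM and at a mean of at least 5 CPM.

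In Snhg8 the direction was the other one. Its unspliced transcript, Snhg8-202, held 10.4%, 13.9% and 11.6% in Torin libraries, 8.76%, 12.0%, 10.3% and 11.7% in stimulated libraries and 26.0%, 20.4%, 17.8% and 19.9% in naive libraries. It fell in stimulated (log2 ratio -1.08, SE 0.218, adjusted p = 0.00921) and in Torin libraries (-0.93, SE 0.236, adjusted p = 0.0485, and 0.142 with the block) against naive ones, with no overlap. The 3-exon form, Snhg8-201, rose on stimulation (0.78, SE 0.188, adjusted p = 0.021, and 0.065 with the block). The summed shares themselves were not tested. In Snhg1 the 14 retained-intron transcripts summed to 18.6% to 24.2% in Torin, 13.1% to 19.5% in stimulated and 19.0% to 23.4% in naive libraries, and no Snhg1 transcript was called, against 5 lower on stimulation with a prior of 2 CPM. The 3 of Snhg5 summed to 28%, 14.4% and 8.42% in Torin libraries, 18.6%, 17.3%, 19.9% and 19.0% in stimulated libraries and 21.6%, 32.0%, 39.4% and 31.7% in naive libraries. Every stimulated library lay below every naive one, and no Snhg5 transcript was called with all libraries. Only 22.5% to 51.4% of Snhg5 counts fell in matched transcripts, so these shares cannot be set beside those of Snhg8, Gas5 and Zfas1. Snhg5-206 alone held 1.13% to 23.5% in naive libraries and 20.6% in Torin 1.

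The balance of the leading Snhg15 transcripts differed in naive libraries. Snhg15-201, with 3 exons, held 67.5%, 68.6% and 75.0% in Torin libraries, 64.6%, 63.1%, 72.6% and 67.5% in stimulated libraries and 50%, 44.5%, 45.9% and 60.2% in naive libraries. Snhg15-204, with 4 exons, held 24.2%, 24.7% and 17.8% in Torin libraries, 23.6%, 23.0%, 17.1% and 18.1% in stimulated libraries and 41.8%, 49.6%, 47.4% and 34.4% in naive libraries. Neither overlapped between naive and other libraries. Snhg15-204 fell in stimulated (log2 ratio -1.58, SE 0.268, adjusted p = 0.00402) and in Torin libraries (-1.42, SE 0.289, adjusted p = 0.0212, and 0.0534 with the block). Snhg15-201 rose in stimulated (1.01, SE 0.261, adjusted p = 0.0268) and in Torin libraries (1.25, SE 0.282, adjusted p = 0.0319, and 0.0756 with the block). In level, Snhg15-204 still stood higher, at 89.4 to 154 CPM in Torin and 82.6 to 126 CPM in stimulated libraries, against 34.6 to 56.9 CPM in naive libraries. The 2-exon forms Snhg15-202 and Snhg15-203 rose in share on stimulation (0.98 and 0.74, adjusted p = 0.015 and 0.0389, with 0.0905 for Snhg15-203 under the block), at 0.65 and 0.45 with a prior of 2 CPM, where Snhg15-203 missed the threshold. In Snhg12, Snhg12-206 fell (-1.75, SE 0.434, adjusted p = 0.0227) while Snhg12-202 (2.37) and Snhg12-210 (1.55), the form with the tract shown above, rose on stimulation. The sizes of both rises depended on the prior. Snhg12-202, at 0 in naive 3 and naive 4, was at 3.74 with a prior of 0.1 CPM and 1.19 with one of 2 CPM, and Snhg12-210 at 1.9 and 0.93. In Snhg6 the leading Snhg6-203 kept 68.9% to 75.1% of the count in every library, and the minor Snhg6-202 (-0.76) and Snhg6-205 (-1.61) fell in share on stimulation. With priors of 0.1 and 2 CPM, Snhg6-202 was at -0.65 and -1.03, and Snhg6-205 at -1.49 and -1.82. In level, Snhg6-202 stood higher in stimulated (9.07 to 12.6 CPM) than in naive libraries (2.06 to 2.71 CPM). The calls in Torin against naive libraries numbered 4 of 50, near the 5.99% called over all transcripts (2.87% higher and 3.12% lower). They were all lost without any 1 of Torin 1, Torin 3, Torin 4 or naive 3, 1 was left without naive 2, and 2 were called without any 1 of stimulated 2, stimulated 3, stimulated 4 or naive 4.

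**Figure D4:**
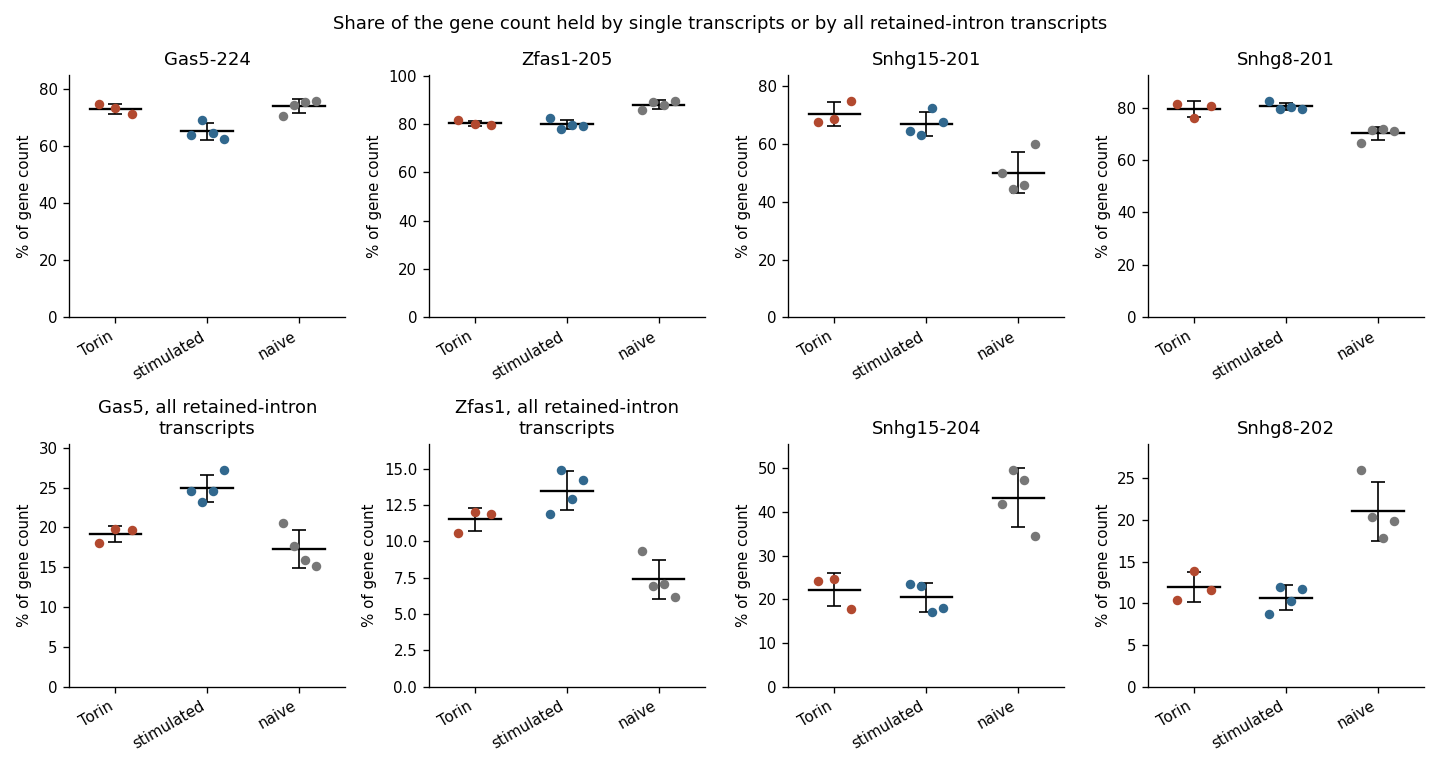
Share of the gene count (y axis, percent, linear from 0) held by single transcripts, or by all retained-intron transcripts of Gas5 and of Zfas1, in Torin, stimulated and naive libraries (x axis), with 1 point per library and lines for mean and SD. The share of Gas5-224 is lowest in stimulated libraries, and those of Snhg15-204 and Snhg8-202 are highest in naive libraries.

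Other genes of the same pathway were counted by list. Of 8 further noncoding hosts, 7 were tested, and they shared no direction. Snhg20 was at 51.5, 87.5 and 50.2 CPM in Torin libraries, 29.3, 25.0, 40.5 and 22 CPM in stimulated libraries and 92.9, 121, 124 and 126 CPM in naive libraries. It fell on stimulation (log2 -1.99, SE 0.241, adjusted p = 8.27e-05) and rose with Torin (1.11, SE 0.250, adjusted p = 0.0336). This rise was the only call with Torin among the 7, where the replicate block gave 2. The description prefix as a block gave 0, as did both groups fitted alone. Dancr rose on stimulation (2.1, SE 0.225, adjusted p = 3.9e-05), and Snhg17 rose in Torin against naive libraries (1.36, SE 0.270, adjusted p = 0.00291). The medians of the 7 were 0.09 in Torin against stimulated, -0.39 in stimulated against naive and -0.04 in Torin against naive libraries.

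Among 27 coding hosts outside the ribosomal protein genes, 19 rose and 2 fell on stimulation (median log2 1.69). The largest rise was that of Nop58 (3.05), a core protein of C/D box snoRNPs, and Eif4a2, an initiation factor, fell (-0.98). With Torin added 4 of the 27 rose and none fell (median -0.19), among them Eif4a2 (1.10) and the elongation factor Eef2 (0.68). All 4 were lost on the ribosomal protein scale, where none of the 27 was called. Of 79 ribosomal protein genes, 63 rose and 1 fell on stimulation (median 0.85). With Torin 6 of them rose and 1 fell (median 0.18), with 11 calls under the replicate block and 1 under the prefix block. Rpl13 (0.84) was among those that rose with Torin, and Rpl38 (-0.88) fell. Of 24 ribosomal protein genes that host snoRNAs, 19 rose on stimulation (median 0.86). With Torin 1 rose, Rpl13, against 5 calls with the replicate block and 0 with the prefix block. Among 18 other TOP mRNAs 13 rose and 2 fell on stimulation (median 0.82), with Npm1 (2.43) and Hnrnpa1 (2.22) the largest rises. With Torin 6 rose and none fell (median 0.31), among them Eif3f (0.88) and Pabpc1 (0.76), both parts of the translation machinery. None of the 18 was called with Torin on the ribosomal protein scale.

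Of 18 snoRNP proteins and assembly factors, 17 rose on stimulation (median 2.5). With Torin 1 fell, Snu13 (-0.95), the protein that binds the snoRNA fold first, and none rose (median -0.19). Of 15 factors of nonsense-mediated decay and the exon junction complex, 4 rose and 5 fell on stimulation (median 0.12). The rises included Magoh (2.56) and Rbm8a (1.89), the pair at the core of the exon junction complex, and the falls Upf2 (-0.91) and Smg1 (-0.74). With Torin, Magoh fell (-1.17, adjusted p = 0.00851) and none rose. Among 14 other long noncoding RNAs 4 rose and 6 fell on stimulation (median -0.94), with Malat1 at -2.36 and Mir155hg at 3.48. The largest fall was that of Ifngas1 (-6.6), at 0.103 to 1.63 CPM in stimulated and 22.9 to 92.4 CPM in naive libraries. With Torin 2 rose, Malat1 (0.97) and Dleu2 (1.02), against 1 call with the block. The corresponding shares over all genes are those given above (2.32% higher and 2.3% lower with Torin, 19.2% and 20.2% on stimulation).

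The balance within lists depended on the scale. Set against ribosomal protein counts, 7.05% of all genes were called higher and 36.6% lower on stimulation (median -1.07). On that scale 2 factors of nonsense-mediated decay and the exon junction complex rose and 10 fell (median -0.73). Of the other TOP mRNAs 5 rose and 6 fell (median -0.04), of the coding hosts 15 rose and 6 fell (median 0.79), and of the snoRNP proteins and assembly factors 13 rose and none fell (median 1.59). The ribosomal protein genes themselves split into 23 higher and 22 lower on stimulation. With Torin 4 were higher and 8 lower, where 0.634% of all genes were called higher and 1.28% lower. Their own sum is the library size on this scale, so a balance of their changes around 0 follows from the scaling. The list calls in Torin against stimulated libraries changed with single libraries. With 1 library left out they numbered 0 to 2 for the further noncoding hosts, 0 to 5 for the coding hosts, 0 to 8 for the ribosomal protein genes, 0 to 3 for those of them that host snoRNAs, 0 to 7 for the other TOP mRNAs, 0 to 1 for the snoRNP list, 0 to 1 for the decay list and 1 to 2 for the other long noncoding RNAs. The ribosomal protein genes, coding hosts, other TOP mRNAs and snoRNP list had no call without Torin 1 or without Torin 3. Without stimulated 2 or without stimulated 4, 1 ribosomal protein gene, 1 coding host and 2 other TOP mRNAs were called. Without stimulated 1, 3 ribosomal protein genes and 1 coding host were called, and without Torin 4 these numbered 4 and 1. The other long noncoding RNAs had 1 call without any 1 of Torin 1, 3 or 4, stimulated 1, 2 or 4 and naive 2. The call of Snu13 was lost without Torin 4 too, that of Magoh without Torin 3, and that of Snhg20 without Torin 1, Torin 3 or stimulated 1, 2 or 4. No list had a call without the libraries of number 4, and without those of number 2 the coding hosts, the decay list and the other long noncoding RNAs had 1 each. With the prefix block 2 coding hosts and 4 other TOP mRNAs were called with Torin. Without a filter on low counts 2 ribosomal protein genes, 2 coding hosts and 4 other TOP mRNAs were.

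**Figure D5:**
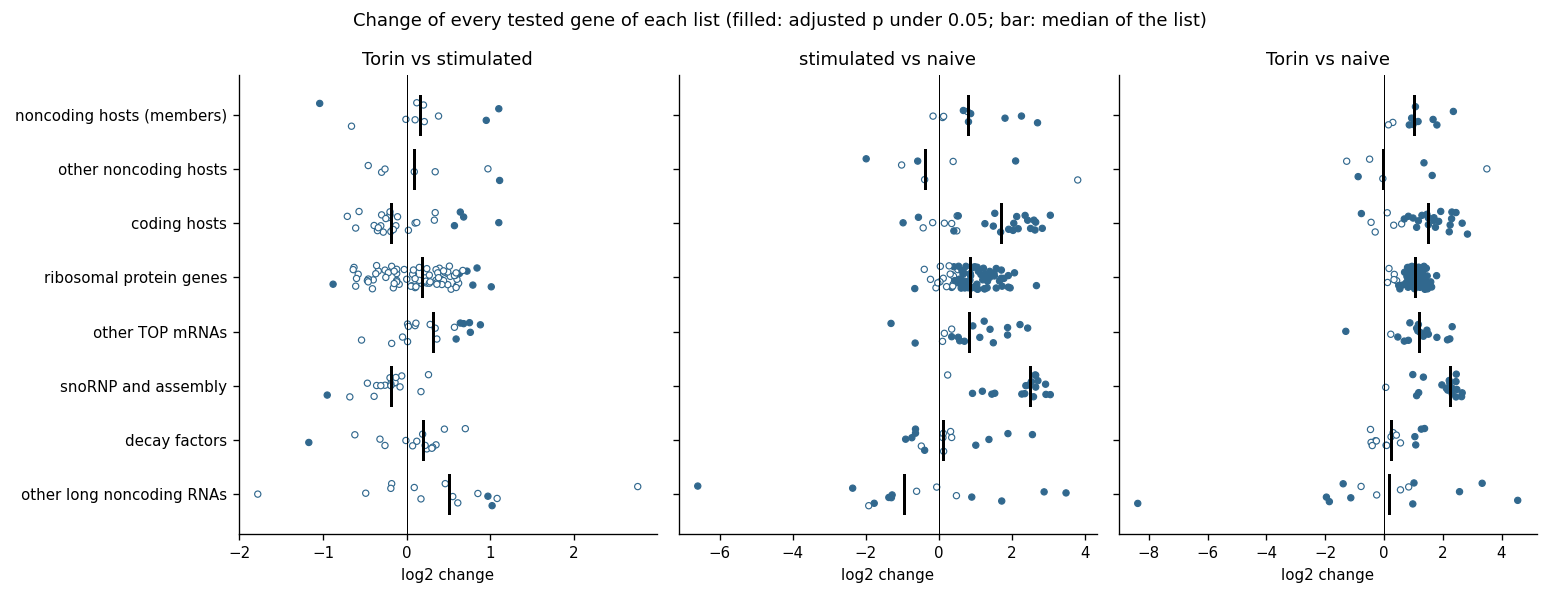
Log2 change (x axis) of every tested gene of the members and of each list (rows) in Torin against stimulated, stimulated against naive and Torin against naive libraries, with bars at list medians. Filled points passed an adjusted p under 0.05, and the x axes differ between panels. The snoRNP list sits near 2.5 on stimulation, above the members at 0.80.

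The kit does not mark strand, so reads of genes that overlap a member on the other strand cannot be told apart from its own. Snhg3 overlaps the lincRNA Gm17300 on the opposite strand, which stood higher than Snhg3 itself, at 105, 101 and 116 CPM in Torin libraries, 144, 226, 398 and 189 CPM in stimulated libraries and 40.2, 58.2, 47.8 and 45.7 CPM in naive libraries. It also overlaps Rcc1 on its own strand, so values of Snhg3 are uncertain. Gas5 overlaps Zbtb37 (1.03 to 3.33 CPM over all libraries), Zfas1 overlaps Znfx1 (2.29 to 8.73 CPM) and Snhg6 overlaps Mcmdc2 (at most 0.151 CPM), all low beside the members.

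The nearest coding genes, by GRCm38 positions, moved both with and against their member. Slc3a2, a subunit of amino acid transporters that starts 106 bases from Snhg1 on the other strand, rose on stimulation (log2 0.97, adjusted p = 0.000866), where Snhg1 rose by 1.81, and Wdr74 on the far side rose by 1.76 (adjusted p = 0.000125). Beside Snhg15, Ccm2 fell on stimulation (-0.94, adjusted p = 0.00221) and Myo1g did not pass the test (0.43, adjusted p = 0.061). Prss12, 955 bases from Snhg8, fell (-3.70, adjusted p = 0.00311). Sgk3 beside Snhg6 fell as well (-1.55, adjusted p = 0.0254), and Tcf24 on its other side was at 0.143 CPM or less. Ddx27 beside Zfas1, an RNA helicase of ribosome assembly, rose (1.95, adjusted p = 1.21e-05). Trnau1ap, which lies between Snhg12 and Snhg3, rose by 1.15 (adjusted p = 0.000196), and Phactr4 on the other side of Snhg3 fell (-0.75, adjusted p = 0.0461). Beside Snhg5, Syncrip, an RNA-binding protein, rose (1.48, adjusted p = 0.00103) and Zfp949, a zinc finger gene, fell (-1.77, adjusted p = 0.000128). Epb41l4a, 341 bases from Epb41l4aos, stood at 0.0171 to 0.506 CPM. No other nearest coding gene passed the test on stimulation, and none did in Torin against stimulated libraries.

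Likeness was measured as the root mean square difference of centred log2 CPM over the 11 libraries, in which levels drop out and composition scaling and library are shared. Among pairs of members, Gas5 and Zfas1 were the most alike, at 0.155, followed by Snhg5 and Snhg12 at 0.195. Snhg6 and Zfas1 were the least alike, at 1.299. Of 6257 other genes with a mean of at least 10 CPM, those nearest to the mean of the members were Rpl10-ps3 and 5430416N02Rik (both 0.126), Gm3379 and Rpl10-ps1 (both 0.131) and Gm6450 (0.135). The pseudogenes among them share reads with their parent gene, so their counts are uncertain. The mean of the members was at 0.48 in Torin, 0.30 in stimulated and -0.66 in naive libraries on the centred log2 scale.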

How the data were processed

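Gene and transcript tables hold estimated counts as deposited by the authors, all whole numbers. Per the submitters' processing notes the build was mm39 and tools included STAR 2.7.1a and StringTie 2.1.0, with roles not given in the sources used here. Identifiers were matched without version to GENCODE M21 (94.0% of genes, 97.1% of transcripts), and printed coordinates are those of GRCm38. Genes were tested with edgeR 4.0.16 (quasi-likelihood, composition factors by TMM, filterByExpr at a minimum count of 10, all 11 libraries, Benjamini-Hochberg over 22238 genes, threshold 0.05). The same test with summed ribosomal protein counts as library size gave the relative scale. Transcript usage was tested with limma 3.58.1 on log2 ratios (prior 0.5 CPM, mean of at least 1 CPM, 14151 transcripts). Intervals of 95% assume normal errors. No counting interval was computed, because estimated counts are not numbers of reads. Steps were tested on simulated data.

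Numbers pair libraries only as a pattern of the data: deviations of same-numbered libraries correlated at 0.11 to 0.31 (Torin and stimulated), 0.15 to 0.29 (stimulated and naive) and 0.08 to 0.28 (Torin and naive). Pairs with different numbers lay lower, at -0.19 to 0.07 over the 3 comparisons. Main fits had no block all the same, and the replicate block was an alternative. The members and lists were chosen with earlier results of these data known. All members are named, with at most 2 rises and 2 falls per list and comparison, nearest coding genes and the 5 most similar genes. A ribosomal protein gene that this rule picks is not reported here. Snhg4, Snhg7 and Snhg16 were not matched. No pair of libraries was a duplicate. Alternatives were DESeq2 1.42.0, library totals, unfiltered genes, a stricter level of 5 CPM, blocks, groups fitted alone, left-out libraries, other priors and ribosomal protein genes without snoRNAs.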

Additional observations from a re-analysis of the deposited data

Results flagged for a closer look

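Within groups of 4 libraries, 2 of the 20 sets of member values held a library far from the other 3, where chance flags about 1 in 20. Epb41l4aos stood at 110 CPM in stimulated 3, against 39.5 to 50.5 CPM in the other stimulated libraries. Per 1000 ribosomal protein counts it was at 0.365 there, against 0.206 to 0.22. In CPM with composition factors all 10 members were highest of their group in stimulated 3. By library totals Snhg6 was not (243 CPM, against 255 CPM in stimulated 2). Per 1000 ribosomal protein counts Snhg5, Snhg6, Snhg15 and Zfas1 were not. Snhg3 stood at 7.74 CPM in naive 1, against 10.2 to 10.3 CPM in the other naive libraries, in CPM with composition factors. Per 1000 ribosomal protein counts naive 1 was at 0.0753, inside the 0.0698 to 0.0777 of the other naive libraries. By library totals it was at 10.5 CPM, against 11.6 to 12.5 CPM. Without naive 1 the rise of Snhg3 on stimulation missed the threshold (log2 0.72, adjusted p = 0.059). What set these libraries apart was not tested.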

How the results depend on the processing

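Calls with Torin were the least stable. Of 10 members, 3 were called in Torin against stimulated libraries, 1 (Snhg6) with the description prefix as a block, 0 without the libraries of number 4 or of number 2, and 0 to 3 with 1 library left out. Calls over all genes were 1027, against 2740 with DESeq2, 656 without a filter, 675 with the prefix block, 338 without the libraries of number 2, 55 without those of number 4 and 144 to 1058 with 1 library left out (261 without Torin 1, 144 without Torin 3, 541 without Torin 4, 463 without stimulated 2 and 441 without stimulated 4). On the ribosomal protein scale the members called numbered 0 to 3 with 1 library left out, and 3 to 5 in Torin against naive libraries. The replicate block changed no member call beyond that of Gas5 with Torin. Usage calls in Torin against stimulated libraries numbered 3 with a prior of 2 CPM. In Torin against naive libraries they numbered 2 with a prior of 0.1 CPM, 9 with one of 2 CPM, 7 at a mean of at least 5 CPM, 0 with the replicate block and 0 to 3 with 1 library left out. The cause was not tested.

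Changes near 0 turned sign, none of them called in either fit. In Torin against stimulated libraries Snhg1 was at 0.17 with library totals, 0.12 with the replicate block, 0.06 with the prefix block and 0.02 with both groups fitted alone, and on the ribosomal protein scale at 0.04 with the replicate block and 0.00 without snoRNA-hosting ribosomal protein genes. In stimulated against naive libraries, library totals gave -0.38 for Gas5 and -0.42 for Snhg8, a mean of at least 5 CPM gave -0.01 and -0.04, and Zfas1 was at 0.12 without the libraries of number 4. In Torin against naive libraries, library totals gave -0.18 for Snhg3 and -0.03 for Snhg8, a mean of at least 5 CPM gave -0.01 for Snhg3, and Zfas1 on the ribosomal protein scale was at 0.03 without snoRNA-hosting genes. With 1 library left out, the ranges were -0.17 to 0.24 for Snhg1 and 0.00 to 0.28 for Snhg12 with Torin, -0.02 to 0.25 for Gas5 and -0.12 to 0.22 for Snhg8 on stimulation. On the ribosomal protein scale they were -0.17 to 0.07 for Snhg1 and -0.05 to 0.10 for Snhg15 with Torin, -0.09 to 0.04 for Snhg12 on stimulation, and -0.03 to 0.11 for Snhg12 and -0.07 to 0.07 for Zfas1 in Torin against naive libraries.

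Only 3 Torin libraries, a B cell signal in number 4 and a granulocyte and monocyte signal in stimulated 2 and naive 2 limit these results, and the annotation is of another build than the tables.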
